A study of Homo sapiens with 12 samples.

Results

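The genes described here are 43 human genes that copy DNA or supply its building blocks, out of 60612 genes measured. They were chosen by name for what their products do and were sorted by role into 8 groups: 6 subunits of the MCM helicase, 10 genes of origin licensing and firing, 5 of the sliding clamp and its loader, 9 polymerase, primase and lagging strand genes, 3 of single-strand binding, 4 of nucleotide supply, 3 of chromatin behind the fork and 3 G1/S regulators. RNA was measured by polyadenylated RNA sequencing in 12 libraries of LX2, an established cell line derived from human hepatic stellate cells, the liver cells that deposit scar matrix. LX2 is 1 line, labelled wild type, and it stands for stellate cells only as far as a dividing line in culture can. Cells in every group, controls included, were seeded for 24 h and then kept without serum for 16 h. The control group of 4 libraries was left untreated. The TGFb group of 4 received transforming growth factor beta at 5 ng/ml for 16 h, and the third group of 4 received STINGX, a compound given by a code name, added at 10 µM 3 h ahead of TGFb of the same dose and time. No group with STINGX alone was analysed here, so its values can be read only on top of TGFb. Whether the 4 libraries of a group were separate cultures is not in the labels. The p-values therefore cover the spread among these 12 libraries alone, and part of it may be technical.

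As background, DNA replication starts when the origin recognition complex, with CDC6 and CDT1, loads the ring-shaped MCM helicase onto DNA in G1. The helicase is switched on in S phase when CDC45 and the GINS complex join it, after which polymerase alpha with primase lays down primers, polymerases delta and epsilon extend them, and the clamp PCNA, loaded by replication factor C, holds polymerases on the template. Ribonucleotide reductase, thymidylate synthase and thymidine kinase make the deoxynucleotides that the polymerases use. Many of these genes are known targets of the E2F transcription factors, which cyclin E and its kinase help to release from retinoblastoma proteins. Quiescent stellate cells divide little and enter the cell cycle on activation, while TGFb is known both as an activator of stellate cells and as an inhibitor of the growth of many other cell types.

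Library totals ran from 54035320 to 70787741 counts, and the 43 genes held 0.567%, 0.518% and 0.514% of them on average in the control, TGFb and STINGX with TGFb groups. Of 8 stellate and mesenchymal markers, 6 were measurable, with collagen COL1A1 at 2307 ± 16.4 CPM in control libraries, while the retinoid enzyme LRAT and desmin had no counts in any library. CPM means counts scaled to a common library total after TMM, a method that sets the bulk of genes equal between libraries, and values after ± are SD over 4 libraries. Of 16 markers of hepatocytes, endothelium, leukocytes and epithelium, albumin, transthyretin and CD3E had no counts in any library, and KRT7, which rose with TGFb and was lower with STINGX, was the highest at up to 33.8 CPM. The other 15 were at or below 2.66 CPM in every library. The summed endothelial markers were at 5.97 to 6.20 CPM in control, 3.90 to 4.88 with TGFb and 2.63 to 3.74 with STINGX, the epithelial ones at 11.1 to 18.1, 26.6 to 33.8 and 8.83 to 10.99 CPM in the same order, and the part of these markers in the results was not tested. The share of counts from mitochondrial genes was 10.7%, 9.05% and 8.26% in the 3 groups, and its part in the results was not tested. Because these are bulk samples, fewer cells in S phase and less RNA per cell cannot be told apart.

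Compared per length, as FPKM (fragments per kilobase of transcript at a common library total), the replication genes were expressed well above a typical gene. Their median was 14.8 ± 0.626 FPKM in control, 14.2 ± 0.628 in TGFb and 15.2 ± 0.196 in STINGX with TGFb libraries (SD, n = 4), beside 1.72, 1.66 and 1.87 FPKM for the 21328 genes tested. PCNA, the sliding clamp, was highest, at a mean of 241.6 FPKM over the 12 libraries. The flap nuclease FEN1 followed at 106.9 FPKM, and then MCM7 at 95.0, MCM3 at 91.2, TYMS at 83.5 and TK1 at 76.6. PCNA in its lowest library, at 197 FPKM, was above FEN1 in its highest, at 120.9, whereas FEN1, MCM7 and MCM3 overlapped in their ranges over libraries. At the other end, CCNE2 averaged 3.74 FPKM and the polymerase epsilon subunit POLE2 2.06 FPKM.

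**Figure D1:**
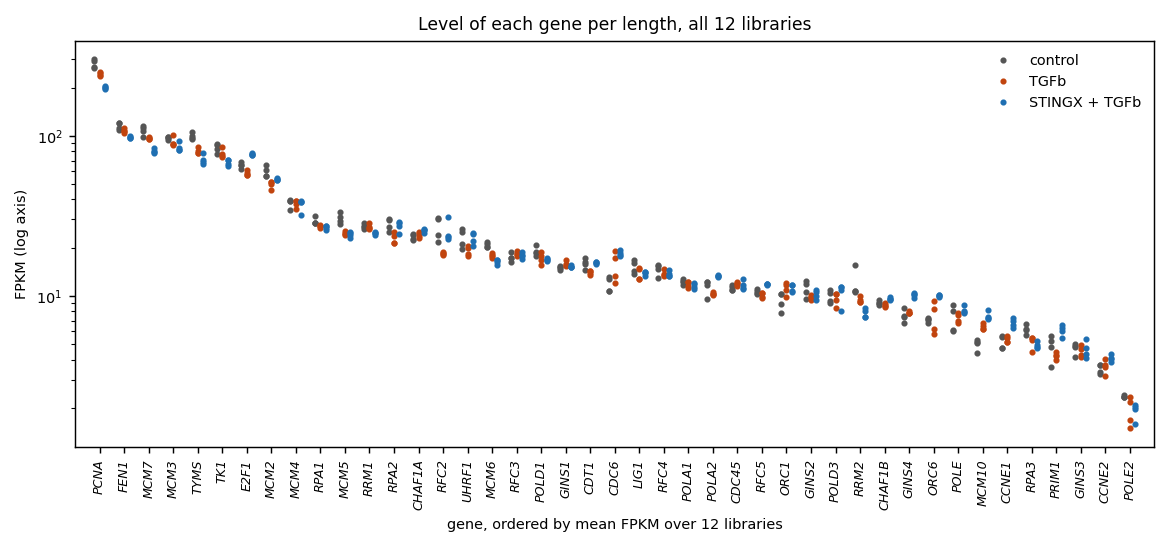
FPKM on a log axis of each of the 43 genes in each of the 12 libraries (points, coloured by group), ordered by the mean over libraries. PCNA stands at the top with 197 to 300.8 FPKM in every library and POLE2 at the bottom with 1.49 to 2.41, and the groups lie close together for most genes.

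Changes between groups were small, and most lay below 1.5-fold. All 43 genes passed the filter on low counts and were tested with edgeR's quasi-likelihood test on all 12 libraries, with Benjamini-Hochberg adjustment over 21328 genes, and a gene is called higher or lower at an adjusted p under 0.05. With TGFb, 4 of the 43 were higher than in control and 5 lower, while 26.0% of all tested genes were called (13.2% higher, 12.8% lower). With STINGX before TGFb, 4 were higher and 14 lower than with TGFb alone, where 27.5% of all genes were called (13.7% higher, 13.8% lower). Compared with control, STINGX with TGFb gave 6 higher and 18 lower, beside 34.2% of all genes called (17.2% and 17.0%). The 14 are 32.6% of the 43 and the 18 are 41.9%, both above the share of all genes, while the counts with TGFb alone (9.3% higher, 11.6% lower) were near it. All genes are not matched to the 43 in expression, which was higher in the 43, and the part of this in the shares was not tested. The median log2 change of the 43 was -0.042, -0.124 and -0.115 in the 3 comparisons, beside -0.004, 0.006 and 0.004 for all genes. The 3 comparisons share libraries, so their values are given side by side.

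The split of higher and lower genes between STINGX with TGFb and TGFb depended on how libraries were scaled. With library totals alone, in place of TMM, the median of all 21328 genes rose to 0.147 in that comparison, and 13 of the 43 were then higher and 6 lower, beside 4997 higher and 1890 lower among all genes. The median of the 43 was 0.016 under that scaling, and its difference from that of all genes was -0.131, as against -0.130 with TMM. Over all 25 other settings that difference ran from -0.136 to 0.004, and it was -0.042 on log2(FPKM + 1) and 0.004 on that scale without a filter. For TGFb against control library totals gave 2 higher and 13 lower, and for STINGX with TGFb against control 11 and 14. Changes below are therefore relative to the bulk of genes. The genes that kept their call for STINGX with TGFb against TGFb in each of 25 other ways of processing were MCM7, PCNA, FEN1, RRM1 and TYMS among the lower, and GINS4, POLA2 and E2F1 among the higher.

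**Figure D2:**
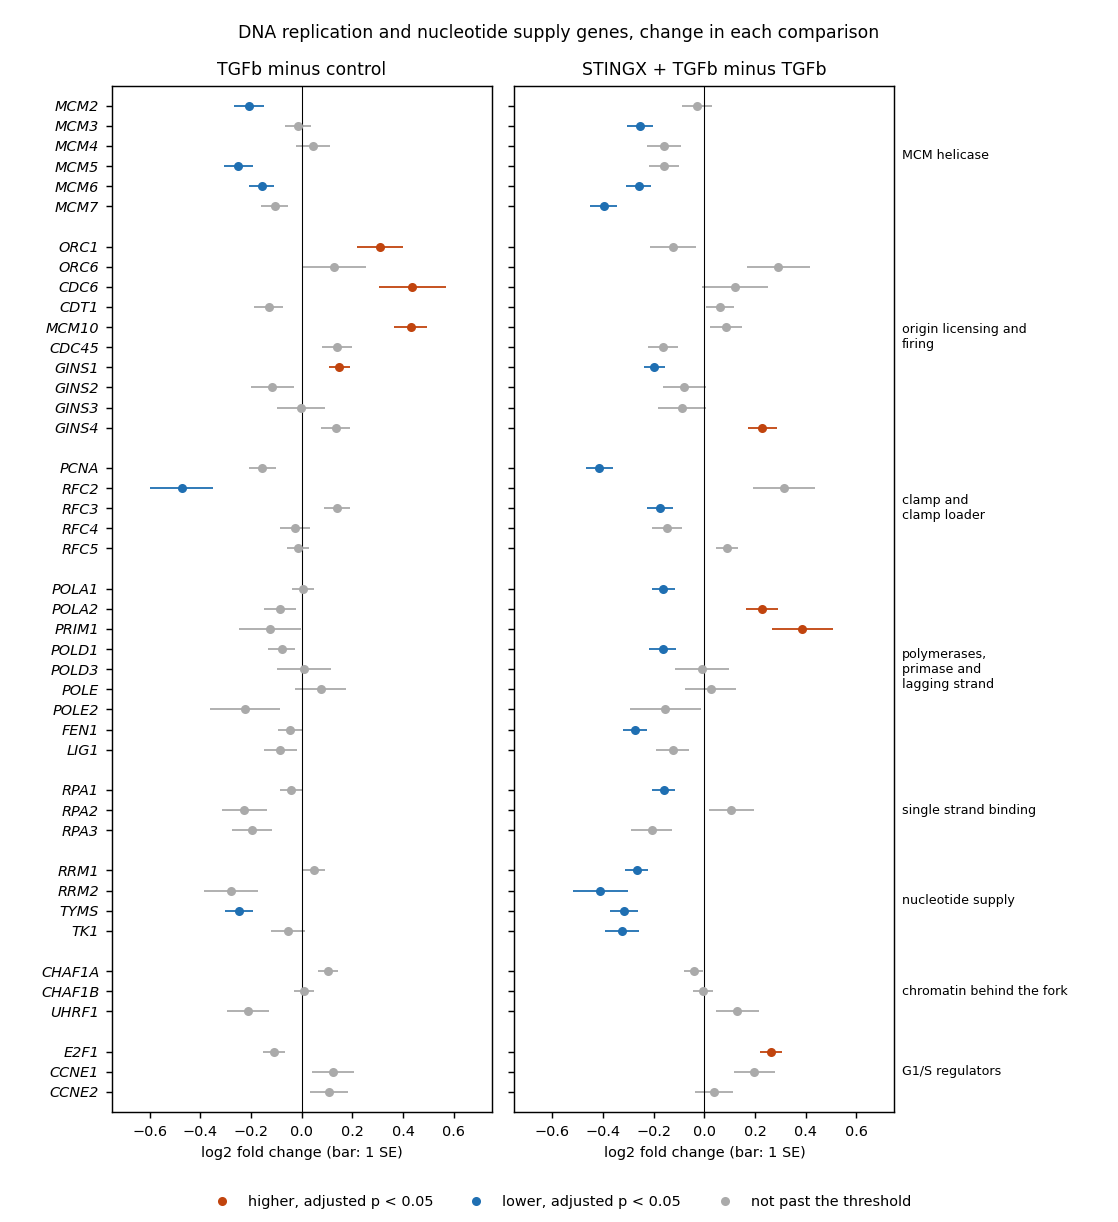
Log2 fold change of each gene, ordered by role, for TGFb minus control (left) and STINGX with TGFb minus TGFb (right), with bars of 1 SE, scaled by TMM. Coloured points passed an adjusted p of 0.05 in edgeR: 4 higher and 5 lower on the left, 4 higher and 14 lower on the right, where all 4 nucleotide supply genes are lower.

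Letters known as an E2F binding motif were common in front of these genes. RefSeq start sites (GRCh38.p14) matched 36 of the 43 genes, and MCM4, MCM5, GINS4, POLD3, RPA2, RPA3 and CCNE2 had no entry. In the window from 250 bases before to 50 after the start, TTTCCCGC, TTTCGCGC, TTTGCCGC or TTTGGCGC, read on both strands, occurred in 19 of the 36 genes (52.8%), against 3.99% of 27305 genes with such a window. CCAAT, on both strands, occurred in 22 of 36 (61.1%, against 39.7%). TTTGAA, the core of the CHR element known from mitotic gene promoters, occurred in 1 of 36 (2.78%, against 18.2%), which was RRM1. A CCAAT match can share bases with an E2F match, and a match is only a match of letters. The 27305 genes were not matched to the 36 in base composition or expression, and the part of these in the differences was not tested. The stretches below are from 3 genes that were lower with STINGX (PCNA, MCM7, TYMS) and 2 that were higher (E2F1, POLA2), shown because matches to this set of letters, in different versions, stand before genes that moved in either direction. Each is written 5′ to 3′ on the gene's strand, with the E2F letters in capitals.
PCNA, minus strand, chr20:5126663-5126692: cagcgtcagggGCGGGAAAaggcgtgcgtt
MCM7, minus strand, chr7:100101566-100101595: cagctcggaccGCGGGAAAcccggcgcctg
TYMS, plus strand, chr18:657603-657632: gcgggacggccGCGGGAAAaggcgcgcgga
POLA2, plus strand, chr11:65261898-65261927: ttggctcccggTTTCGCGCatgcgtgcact
E2F1, minus strand, chr20:33686394-33686422: tttcGCGGCAAAaaggaTTTGGCGCgtaa

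The letters GCGGGAAA stood 52 to 59 bases before the start of PCNA, 180 to 187 before that of MCM7 and 32 to 39 before that of TYMS, and MCM7 held TTTCGCGC as well, 2 to 9 bases before its start. E2F1 itself held a pair of matches between 13 and 33 bases before its start. Of the genes with a RefSeq window, the motif occurred in 8 of 14 that were lower with STINGX, in 2 of 3 that were higher and in 9 of 19 that passed in neither direction. With TGFb it occurred in 3 of 4 lower genes, 2 of 4 higher genes and 14 of 28 others. Except for PCNA, the printed stretches overlap an annotated exon of some transcript.

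The MCM helicase subunits, which form the ring that unwinds DNA, were lower in part with TGFb and in part with STINGX. With TGFb 3 of 6 were lower (MCM2, MCM5, MCM6), and with STINGX against TGFb 3 of 6 (MCM3, MCM6, MCM7), though only MCM7 kept its call with library totals alone. Against control 5 of 6 were lower after both agents, and the same number was lower with library totals. MCM2 stood at 377, 321, 307 and 342 CPM in the control libraries, 304, 297, 298 and 266 with TGFb and 286, 292, 281 and 282 with STINGX and TGFb. All 4 control libraries were above all TGFb libraries, and the latter overlapped those with STINGX. The log2 change was -0.21 ± 0.060 (SE, adjusted p = 0.0226, edgeR) for TGFb and -0.03 ± 0.060 (SE, adjusted p = 0.772, edgeR) for STINGX with TGFb against TGFb. Without control replicate 1 or TGFb replicate 4 the TGFb call on MCM2 was lost (adjusted p = 0.0563 and 0.0687, edgeR).

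MCM5 was lower with TGFb too. It gave 294, 276, 239 and 251 CPM in control, 223, 218, 227 and 223 with TGFb and 208, 199, 200.2 and 190.1 with STINGX, so that the 3 groups did not overlap. Its log2 change was -0.25 ± 0.058 (SE, adjusted p = 0.00656, edgeR) with TGFb, and -0.16 ± 0.058 (SE, adjusted p = 0.0613, edgeR) for STINGX with TGFb against TGFb. MCM7, a core subunit of the ring, gave 599, 612, 504 and 554 CPM in control, 537, 527, 529 and 514 with TGFb and 390.3, 419, 397 and 391 with STINGX. Control and TGFb libraries overlapped, and every STINGX library was below all 8 others. The log2 change for STINGX with TGFb against TGFb was -0.40 ± 0.054 (SE, adjusted p = 0.000119, edgeR), which is 75.9% of the TGFb level, and against control it was -0.51 ± 0.054 (SE, adjusted p = 1.26e-05, edgeR).

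MCM6 was the only helicase gene called in all 3 comparisons, at 102 ± 5.80, 91.9 ± 3.73 and 76.8 ± 2.27 CPM in the order control, TGFb, STINGX with TGFb. Its TGFb call, at a log2 change of -0.16, was lost when any of 5 libraries (controls 1 and 2, replicates 2, 3 and 4 of TGFb) was left out (adjusted p 0.0583 to 0.094, edgeR). MCM3 was lower with STINGX by a log2 change of -0.25 ± 0.052 (SE, adjusted p = 0.00255, edgeR), which was not called with library totals (-0.11). MCM4 passed in no comparison, at 317 ± 16.6, 327 ± 19.3 and 293 ± 26.5 CPM. The log2 changes of the 6 subunits with STINGX against TGFb ran from -0.03 (MCM2) to -0.40 (MCM7), and differences between subunits were not tested.

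All 4 of the 43 genes that were higher with TGFb load or fire the helicase. Of 10 such genes, 4 were higher than in control (CDC6, MCM10, ORC1 and GINS1) and none was lower, with a median log2 change of 0.137, although with library totals only CDC6 and MCM10 remained higher and 1 gene, CDT1, was lower. For STINGX against TGFb the count was 1 higher and 1 lower, and 4 higher and 0 lower with library totals. MCM10, which helps the loaded helicase to start, gave 29.01, 33.5, 33.1 and 34.2 CPM in control, 42.7, 44.7, 42.01 and 45.5 with TGFb and 45.9, 45.1, 50.4 and 44.2 with STINGX. All TGFb libraries were above all controls. It changed by a log2 of 0.43 ± 0.064 (SE, adjusted p = 0.000274, edgeR) with TGFb and 0.52 ± 0.064 (SE, adjusted p = 4.29e-05, edgeR) for STINGX with TGFb against control.

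CDC6, the loading factor, varied between TGFb libraries. It gave 81.8, 84.8, 67.1 and 67.5 CPM in control, 80.8, 115, 125 and 87.2 with TGFb and 112, 109, 106 and 116 with STINGX. TGFb replicates 1 and 4 lay within or just above the control range, while all STINGX libraries were above all controls. The log2 change with TGFb was 0.44 ± 0.13 (SE, adjusted p = 0.0291, edgeR), and the call was lost when any of 4 libraries (control replicates 3 and 4, TGFb replicates 2 and 3) was left out (adjusted p 0.0786 to 0.0848, edgeR). For STINGX with TGFb against control it was 0.56 ± 0.13 (SE, adjusted p = 0.00616, edgeR), and against TGFb 0.12 ± 0.13 (SE, adjusted p = 0.559, edgeR). Of the CDC6 count, the main transcript held 94.4% to 99.4% in 11 libraries and 60.1% in TGFb replicate 2.

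ORC1, the largest subunit of the origin recognition complex, gave 29.7, 39.3, 37.3 and 32.7 CPM in control and 38.5, 45.6, 46.3 and 41.9 with TGFb, groups that overlapped. Its log2 change was 0.31 ± 0.091 (SE, adjusted p = 0.0247, edgeR), and the call was lost when any of 4 libraries (controls 1 and 4, replicates 2 and 3 of TGFb) was left out (adjusted p 0.0641 to 0.0721, edgeR). ORC6, another subunit, gave 37.5, 35.3, 35.9 and 36.9 CPM in control, 45.1, 49.9, 30.7 and 33.04 with TGFb and 48.2, 49.5, 48.01 and 49.01 with STINGX. The STINGX libraries were above all controls, with a log2 change of 0.42 ± 0.12 (SE, adjusted p = 0.02, edgeR), while the TGFb libraries were spread on either side of them.

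Of the 4 GINS subunits, which join the helicase as 1 complex, GINS1 was lower and GINS4 higher with STINGX against TGFb, and with library totals only GINS4 was called. GINS1 was higher with TGFb and lower again with STINGX, at 75.9, 72.4, 74.6 and 72.2 CPM in control, 81.4, 87.01, 80.2 and 78.6 with TGFb and 71.1, 71.6, 72.01 and 70.4 with STINGX. The TGFb libraries stood above all others. The log2 changes were 0.15 ± 0.042 (SE, adjusted p = 0.0185, edgeR) with TGFb, lost without TGFb replicate 2 (adjusted p = 0.0628, edgeR), and -0.20 ± 0.042 (SE, adjusted p = 0.00309, edgeR) for STINGX with TGFb against TGFb, neither of them called with library totals. GINS4 was higher with STINGX, at 44.6, 49.7, 46.8 and 53.8 CPM in control, 53.2, 55.1, 52.5 and 53.00 with TGFb and 64.8, 60.6, 62.97 and 62.1 with STINGX. All STINGX libraries were above all others, with a log2 change of 0.23 ± 0.057 (SE, adjusted p = 0.00944, edgeR) against TGFb and 0.36 ± 0.057 (SE, adjusted p = 0.000303, edgeR) against control. GINS2, GINS3, CDT1 and CDC45, the helicase partner, passed in no comparison by edgeR with TMM. DESeq2 called CDC45 lower with STINGX against TGFb, upper quartile scaling did so too (adjusted p = 0.0457, edgeR) and called GINS2 lower against control (adjusted p = 0.038, edgeR), and with library totals CDT1 was lower with TGFb (-0.19) and higher with STINGX against TGFb (0.20).

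**Figure D3:**
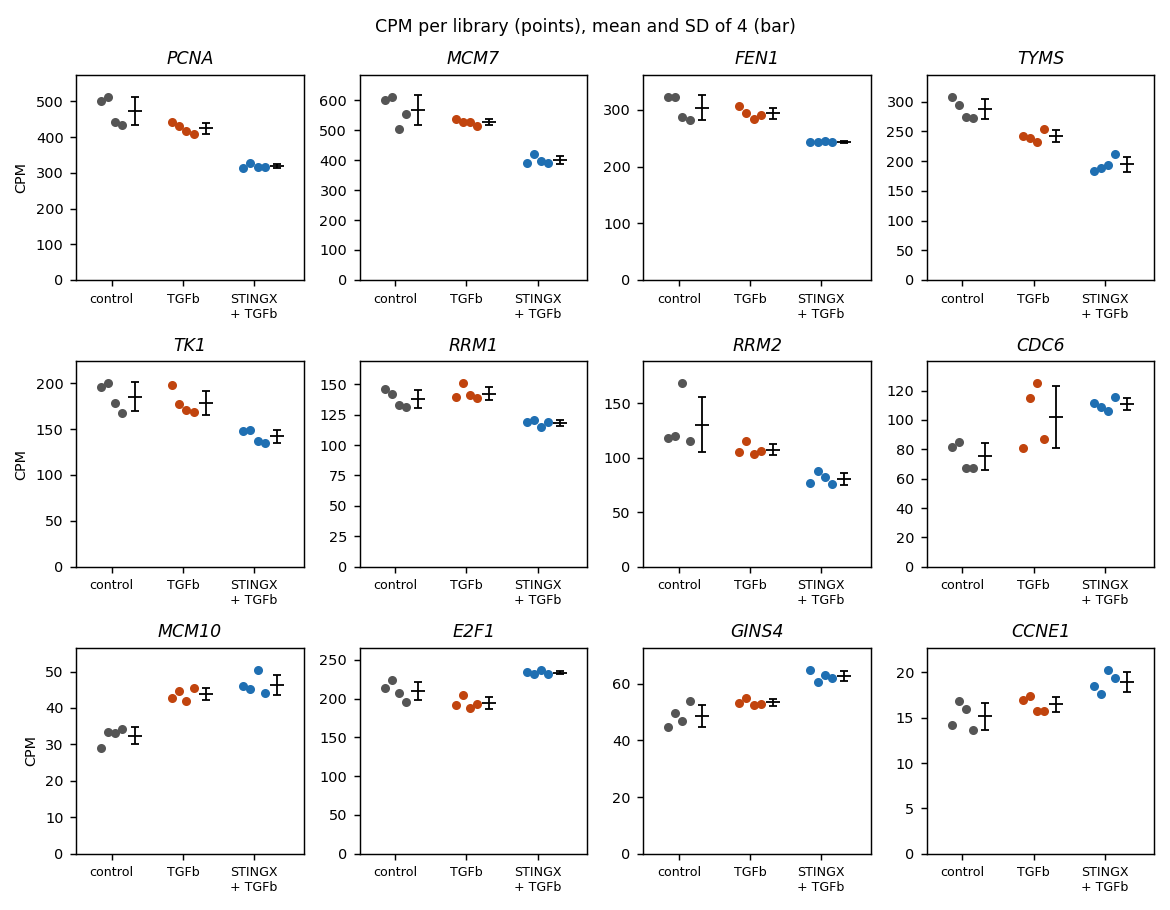
CPM of 12 of the genes in each library (points, replicates 1 to 4 from left to right within a group), with the mean and SD of 4 beside them, on axes that start at 0. PCNA, MCM7, FEN1, TYMS, TK1, RRM1 and RRM2 have every STINGX library below every TGFb library, and E2F1, GINS4 and CCNE1 have every one above.

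PCNA, the clamp that tethers polymerases to DNA, had the largest fall of the 43 genes with STINGX against TGFb, followed closely by RRM2. The gene lies on chromosome 20 (chr20:5114953-5126626, GRCh38). It gave 500.1, 514, 441 and 435 CPM in control, 441, 431, 417 and 407 with TGFb and 314, 327, 316 and 316 with STINGX. Every STINGX library was below the 8 others, and TGFb replicate 1 overlapped the controls. On the log2 scale the change was -0.41 ± 0.054 (SE, adjusted p = 7.84e-05, edgeR) against TGFb and -0.57 ± 0.054 (SE, adjusted p = 4.09e-06, edgeR) against control, and it stayed below 0 with library totals (-0.27). For TGFb against control it was -0.16 ± 0.053 (SE, adjusted p = 0.0501, edgeR), which missed the threshold, but PCNA was called lower there in 10 of 25 other settings, among them library totals (-0.22, adjusted p = 0.00241, edgeR).

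Of the 4 clamp loader subunits, 1 was lower with STINGX against TGFb, and 0 with library totals, where RFC2 and RFC5 were higher. RFC2 gave 64.8, 82.4, 56.3 and 78.9 CPM in control, 49.8, 52.4, 50.3 and 50.8 with TGFb and 77.6, 59.8, 58.3 and 56.96 with STINGX. The TGFb libraries were closely grouped and below all others. The log2 change was -0.47 ± 0.12 (SE, adjusted p = 0.0125, edgeR) with TGFb and 0.31 ± 0.12 (SE, adjusted p = 0.0796, edgeR) for STINGX with TGFb against TGFb, where replicate 1 of STINGX stood apart at 77.6 CPM. RFC3 was lower with STINGX against TGFb by a log2 change of -0.18 (adjusted p = 0.0201, edgeR), lost without TGFb replicate 4 or STINGX with TGFb replicate 4 (adjusted p = 0.0594 and 0.0661). RFC4 was called only against control, at -0.18 (adjusted p = 0.0373, edgeR), and lost the call without any 1 of 6 libraries (controls 2, 3 and 4, or replicates 1, 2 and 3 of STINGX with TGFb; adjusted p 0.0671 to 0.101). The RFC4 call was also lost with library totals. RFC5 passed in no comparison with TMM.

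Among 9 polymerase, primase and lagging strand genes none was called with TGFb, by edgeR, DESeq2 or limma-voom, and 0 had an unadjusted p under 0.05. After STINGX, 3 were lower than with TGFb alone (FEN1, POLA1, POLD1) and 2 higher (PRIM1, POLA2), and with library totals 1 was lower and 2 higher. FEN1, which trims the flaps between lagging strand fragments, gave 322, 323, 287 and 282 CPM in control, 307, 295, 284 and 290.2 with TGFb and 243, 243, 245 and 243 with STINGX. Every STINGX library was below the 8 others, with a log2 change of -0.27 ± 0.049 (SE, adjusted p = 0.000983, edgeR) against TGFb. FEN1 overlaps a more abundant gene, FADS2, on the same strand, so its count is uncertain. LIG1, the ligase that seals those fragments, was at 119.5 ± 9.44, 113 ± 8.90 and 103 ± 2.34 CPM. It was called only against control (-0.21, adjusted p = 0.024, edgeR). That call was lost without control replicate 3 or 4 or STINGX with TGFb replicate 2 (adjusted p 0.0581 to 0.0677, edgeR), and with library totals. Against control, library totals gave 2 higher and 2 lower among the 9 genes, beside 0 and 5 with TMM.

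In the polymerase alpha and primase complex POLA2 and PRIM1 were higher and POLA1 was lower with STINGX against TGFb, the last of these not with library totals. POLA2, its regulatory subunit, gave 82.3, 64.9, 79.8 and 76.7 CPM in control, 70.8, 74.2, 70.8 and 70.6 with TGFb and 83.8, 84.6, 84.2 and 82.5 with STINGX. All STINGX libraries were above the others, with a log2 change of 0.23 ± 0.063 (SE, adjusted p = 0.0177, edgeR) against TGFb. PRIM1, the catalytic primase, gave 19.5, 16.8, 17.5 and 12.2 CPM in control, 16.1, 15.04, 14.1 and 15.2 with TGFb and 19.6, 17.8, 21.1 and 20.5 with STINGX. STINGX and TGFb libraries did not overlap, and control replicate 4 was the lowest of all 12. Its log2 change of 0.39 ± 0.12 (SE, adjusted p = 0.0317, edgeR) against TGFb was lost without any 1 of 6 libraries (replicates 2, 3 and 4 of TGFb, or 1, 3 and 4 of STINGX with TGFb; adjusted p 0.0598 to 0.081, edgeR). PRIM1 overlaps a more abundant gene, NACA, on the same strand, so its count is uncertain.

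POLA1, the catalytic subunit of the same complex, was lower with STINGX, at 97.5 ± 4.10 CPM with TGFb and 87.1 ± 3.29 with STINGX (log2 change -0.16 ± 0.045 SE, adjusted p = 0.0173, edgeR). POLD1, the catalytic subunit of polymerase delta, was at 106 ± 7.22 and 94.4 ± 2.02 CPM (log2 change -0.16 ± 0.053 SE, adjusted p = 0.0371, edgeR). Both changes shrank to -0.02 with library totals. The POLA1 call was lost without TGFb replicate 2 or 4 or STINGX with TGFb replicate 1 or 4 (adjusted p 0.0523 to 0.0596, edgeR), and the POLD1 call without any of 7 libraries, which were all of these 2 groups but TGFb replicate 2 (adjusted p 0.05 to 0.11). POLE2 was called only against control, at a log2 change of -0.38 (adjusted p = 0.0472, edgeR). Leaving out any of 9 libraries lost that call (all controls, TGFb replicate 2 and all libraries with STINGX, adjusted p 0.0514 to 0.133, edgeR), as did library totals. POLD3 and POLE passed in no comparison, and POLD3 stood at 49.4 CPM in STINGX with TGFb replicate 3 against 68.4 to 71.4 CPM in the other 3.

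The RPA subunits, which coat single-stranded DNA, were called in 0 of 3 with TGFb by edgeR with TMM, DESeq2 and limma-voom, while 2 of 3 had an unadjusted p under 0.05. With library totals those 2, RPA2 (-0.29, adjusted p = 0.0162, edgeR) and RPA3 (-0.26, adjusted p = 0.0249, edgeR), were lower with TGFb. RPA1 was lower with STINGX against TGFb, at 186 ± 2.98 and 167 ± 4.69 CPM (log2 change -0.16 ± 0.044 SE, adjusted p = 0.0164, edgeR), a change that shrank to -0.02 with library totals. Its call was also lost without STINGX with TGFb replicate 4 (adjusted p = 0.0555, edgeR). RPA3 was at 23.8 ± 1.64, 20.8 ± 1.99 and 18.01 ± 0.822 CPM in the 3 groups, with a log2 change of -0.40 ± 0.080 (SE, adjusted p = 0.00166, edgeR) against control. RPA2 passed in no comparison with TMM, and with library totals it was also higher with STINGX against TGFb (0.25, adjusted p = 0.0304, edgeR).

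Nucleotide supply was the role group in which every member was lower with STINGX against TGFb: RRM1, RRM2, TYMS and TK1, 4 of 4, with a median log2 change of -0.323. With library totals the median was -0.182 and 3 of 4 were called, RRM2 being the exception. TYMS, thymidylate synthase, which makes the thymine nucleotide, lies on chromosome 18 (chr18:657653-673578, GRCh38). It gave 309, 294, 275 and 272 CPM in control, 243, 239, 232 and 255 with TGFb and 183, 189, 193 and 213 with STINGX. The 3 groups did not overlap. It changed by a log2 of -0.25 ± 0.056 (SE, adjusted p = 0.00532, edgeR) with TGFb, -0.32 ± 0.056 (SE, adjusted p = 0.000883, edgeR) for STINGX with TGFb against TGFb and -0.56 ± 0.056 (SE, adjusted p = 6.1e-06, edgeR) against control.

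RRM2, the small subunit of ribonucleotide reductase, gave 118, 120.2, 168 and 115 CPM in control, 105, 115, 103 and 106 with TGFb and 76.5, 87.7, 82.7 and 76.02 with STINGX. Control replicate 3 stood apart from the other controls, and every STINGX library was below all others. On the log2 scale the change was -0.41 ± 0.11 (SE, adjusted p = 0.013, edgeR) against TGFb, -0.69 ± 0.11 (SE, adjusted p = 0.000312, edgeR) against control, and -0.28 ± 0.11 (SE, adjusted p = 0.0778, edgeR) for TGFb against control. RRM1, its large subunit, gave 146, 142, 133 and 131 CPM in control, 139, 151, 141 and 138 with TGFb and 119, 120.2, 115 and 119 with STINGX, with a log2 change of -0.27 ± 0.045 (SE, adjusted p = 0.000636, edgeR) against TGFb. Its STINGX libraries were below all others.

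TK1, the thymidine kinase of S phase cells, gave 196, 199.7, 178 and 167 CPM in control, 198, 177, 171 and 169 with TGFb and 148, 148, 137 and 135 with STINGX. The control and TGFb libraries overlapped and the STINGX libraries were below them. The log2 change was -0.33 ± 0.067 (SE, adjusted p = 0.00282, edgeR) against TGFb and -0.05 ± 0.067 (SE, adjusted p = 0.621, edgeR) for TGFb against control.

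A further 13 genes of deoxynucleotide supply, outside the 43, also had falls with STINGX. Against TGFb 7 were lower and 0 higher (median log2 change -0.275), and with library totals 5 were lower and 1 higher (median -0.134). The largest fall was that of the deoxynucleotide hydrolase SAMHD1 (-0.74 ± 0.15 SE, adjusted p = 0.00366, edgeR). Others called were DUT, which removes dUTP, at -0.54, and the thymidylate kinase DTYMK, also at -0.54. With TGFb against control 2 of the 13 were higher, the nucleoside transporter SLC29A1 (0.76) and the nucleoside diphosphate kinase NME1 (0.42), and 2 lower, TK2 (-0.42) and RRM2B (-0.33). In de novo purine and pyrimidine synthesis, 7 of 17 genes were higher with TGFb and 0 lower (6 and 0 with library totals), led by CTP synthase CTPS1 (0.86, adjusted p = 2.07e-06) and PPAT, the entry enzyme of purine synthesis (0.40, adjusted p = 0.0101). After STINGX, 1 of the 17 (5 with library totals) was higher than with TGFb alone, CTPS2 (0.35), and 2 were lower, CTPS1 (-0.64) and IMPDH2 (-0.61).

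The chromatin genes CHAF1A, CHAF1B and UHRF1, which assemble nucleosomes or help to copy DNA methylation behind the fork, had no call in any comparison by edgeR with TMM. With library totals 1 of 3 was lower with TGFb, 2 were higher with STINGX against TGFb and 1 was higher against control. Under TMM, with TGFb 2 of the 3 had an unadjusted p under 0.05 and DESeq2 called 1, while in the other comparisons 0 had an unadjusted p under 0.05 and DESeq2 and limma-voom called 0. CHAF1B was the steadiest relative to the bulk of genes, at 55.4 ± 0.951, 55.7 ± 1.14 and 55.5 ± 1.28 CPM, though with library totals its change for STINGX with TGFb against TGFb was 0.14 and was called higher. UHRF1 was at 141 ± 16.6, 122 ± 7.35 and 133 ± 10.8 CPM, and with library totals it was lower with TGFb (-0.28, adjusted p = 0.0474, edgeR) and higher with STINGX against TGFb (0.27, adjusted p = 0.0454, edgeR).

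The deposited counts per transcript gave a shift within UHRF1 that its gene count did not show. The transcript ENST00000620565 held 59.3%, 59.6%, 53.7% and 60.9% of the UHRF1 count in control, and 20.3%, 10.8%, 23.6% and 25.9% with TGFb. With STINGX it held 24.0%, 26.5%, 15.7% and 48.4%. The control libraries did not overlap the others. The transcript ENST00000615884 held 4.37%, 36.6%, 43.9% and 36.9% in control and 73.2%, 84.0%, 68.6% and 68.2% with TGFb, and STINGX libraries lay between 35.1% and 71.1%. These shares come from the authors' division of reads among 8 transcripts and were not tested. Over the 43 genes the same transcript led in all 3 groups for 37, and for 11 the share of the leading transcript ranged over more than 50 points within a group, so transcript shares were noisy for many.

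**Figure D4:**
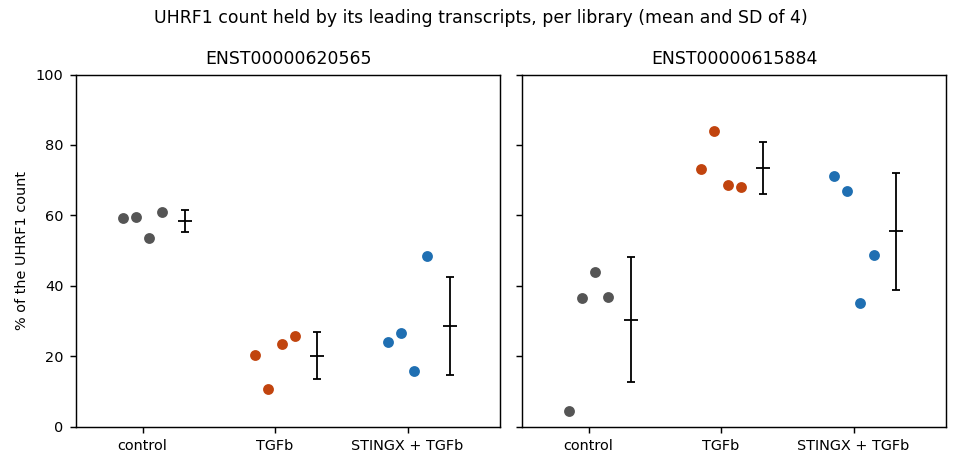
Percent of the UHRF1 count held by its 2 leading transcripts in each library (points), with the mean and SD of 4 per group. The control libraries are at 53.7% to 60.9% for the transcript on the left, above all others, and at 4.37% to 43.9% for the transcript on the right, below the TGFb libraries at 68.2% to 84.0%.

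Of the G1/S regulators, which open S phase, 0 of 3 were called with TGFb by edgeR with TMM, DESeq2 or limma-voom, and 1 had an unadjusted p under 0.05, while library totals gave 1 lower, E2F1. After STINGX, 1 of 3 was higher than with TGFb alone, and 2 of 3 with library totals. E2F1, the transcription factor, lies on chromosome 20 (chr20:33675477-33686385, GRCh38). It gave 213, 223, 207 and 196 CPM in control, 192, 205, 188 and 193 with TGFb and 234, 232, 236 and 232 with STINGX. Every STINGX library was above the 8 others. It changed by a log2 of 0.26 ± 0.043 (SE, adjusted p = 0.000531, edgeR) against TGFb, 0.15 ± 0.043 (SE, adjusted p = 0.0145, edgeR) against control and -0.11 ± 0.043 (SE, adjusted p = 0.084, edgeR) for TGFb against control, and the first of these was larger with library totals (0.41). The change with TGFb was called with library totals (-0.17, adjusted p = 0.00371, edgeR), and the call against control was lost with upper quartile scaling (adjusted p = 0.0677, edgeR). In the same libraries PCNA, MCM7, TYMS and RFC3, whose windows hold GCGGGAAA on the gene's strand, were called lower against TGFb with TMM. CDT1 (0.06), UHRF1 (0.13), GINS2 (-0.08) and GINS3 (-0.09) hold the same letters and were not called. MCM6, POLA1 and GINS1, whose windows hold TTTGGCGC on either strand as that of E2F1 does, were called lower too, though not with library totals. CDC6 (0.12), POLE (0.02) and POLE2 (-0.155) hold it as well and were not called.

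CCNE1, cyclin E1, gave 14.2, 16.8, 15.9 and 13.7 CPM in control, 16.99, 17.4, 15.8 and 15.8 with TGFb and 18.5, 17.6, 20.2 and 19.3 with STINGX. STINGX libraries were above all others. On the log2 scale the change was 0.20 ± 0.081 (SE, adjusted p = 0.0933, edgeR) against TGFb and 0.32 ± 0.080 (SE, adjusted p = 0.008, edgeR) against control. CCNE2, cyclin E2, gave 17.5, 17.9, 19.2 and 19.1 CPM in control, 20.6, 17.5, 21.8 and 19.5 with TGFb and 20.6, 20.3, 21.4 and 19.2 with STINGX, and passed in no comparison with TMM. Its log2 changes were 0.11 ± 0.075 (SE, adjusted p = 0.346, edgeR) with TGFb, 0.04 ± 0.075 (SE, adjusted p = 0.767, edgeR) for STINGX with TGFb against TGFb and 0.14 ± 0.074 (SE, adjusted p = 0.162, edgeR) against control.

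Around these regulators, 30 other G1/S genes gave 8 higher and 5 lower with TGFb, led by cyclin D1 CCND1 (0.99, adjusted p = 7.7e-10) and its kinase CDK6 (0.89), with the inhibitor CDKN2C (-1.06) and cyclin D2 CCND2 (-1.07) lowest among those with a mean of at least 1 CPM. With STINGX against TGFb 5 were higher and 9 lower, among them the atypical repressor E2F7 (0.87, adjusted p = 1.07e-07) and CCND2 (0.81) higher and CDKN2B (-1.24) and cyclin A2 CCNA2 (-0.99) lower, while library totals gave 10 higher and 5 lower. Among other origin and fork genes, 2 of 17 origin genes (DBF4, TICRR) and 2 of 20 fork genes (PCLAF, POLD2) were lower with STINGX against TGFb and 0 were higher. With library totals 3 origin genes were higher and 0 lower, and 5 fork genes were higher and 1 lower. PCLAF, a partner of PCNA, was called in all 25 other settings, at -0.59 ± 0.10 (SE, adjusted p = 0.000669, edgeR). Of 14 further chromatin genes 3 were lower (the largest falls were SSRP1 at -0.40 and ASF1B at -0.21), and 1 with library totals. The call on SSRP1 held in every setting, while that on ASF1B was lost in 17 of 25, 10 of them with 1 library left out. Of 15 checkpoint and repair genes 2 were higher (RAD9A at 0.41, EXO1 at 0.26) and 1 lower (ATRIP at -0.37, a call lost in 10 of 25 settings), while library totals gave 5 higher and 0 lower. With TGFb against control, origin genes gave 2 higher and 0 lower, and fork genes 2 and 3. Chromatin genes gave 1 and 2, and checkpoint and repair genes 2 and 0. Library totals gave 0 and 1, 1 and 4, 0 and 3, and 1 and 0 in the same order. CLSPN (0.36) was among the higher fork genes and POLE4 (-0.47) among the lower.

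Of 10 mitotic genes, 9 were lower with STINGX against TGFb at a median log2 change of -0.957 (9 lower and a median of -0.816 with library totals), beside -0.124 for the 43. The exception was AURKA, which was not called though its estimate was below 0 too, as all 10 log2 changes lay between -1.258 and -0.576. TOP2A, the topoisomerase that separates replicated DNA, gave 455, 442, 491 and 474 CPM in control, 462, 467, 452 and 465 with TGFb and 197, 192, 191 and 193 with STINGX, a log2 change of -1.26 ± 0.036 (SE, adjusted p = 8.56e-11, edgeR) against TGFb. MKI67, the proliferation marker, gave 279.8, 368, 240.3 and 423 CPM with TGFb and 80.5, 151, 179 and 187 with STINGX (-1.13 ± 0.28 SE, adjusted p = 0.0117, edgeR). The difference between the mitotic and replication lists was not tested. With TGFb 0 of the 10 were called by edgeR with TMM, DESeq2 or limma-voom, and 0 had an unadjusted p under 0.05, while 2 were lower with library totals.

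By pattern of calls over the 3 comparisons, the largest class was 13 genes with no call. A further 10 genes (MCM3, MCM7, PCNA, POLA1, POLD1, FEN1, RPA1, RRM1, RRM2, TK1) were lower with STINGX against both TGFb and control and not called with TGFb, although with library totals MCM7, PCNA and RRM2 were also lower with TGFb. Of these 10, MCM3, POLA1, POLD1, RPA1 and RRM2 lost the call for STINGX with TGFb against TGFb under library totals. POLA1 lost the call against control there as well. MCM6 and TYMS were lower in all 3, and GINS4 and E2F1 were higher against both TGFb and control without a call for TGFb. With library totals MCM6 was not called for STINGX with TGFb against TGFb. GINS1 was the only gene called in opposite directions, higher with TGFb and lower with STINGX. Groups without overlap were counted as well: with STINGX against TGFb 7 genes had all 4 libraries above (15.9% of all genes did) and 15 all 4 below (15.7%, or 31.6% in either direction). With TGFb against control 4 were above (13.9%) and 7 below (13.1%, or 27.1% in either direction), and with STINGX and TGFb against control 9 were above (17.8%) and 18 below (16.7%, or 34.5%).

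Some counts rest on how reads were divided between genes that share sequence. On the same strand, 7 of the 43 overlap another tested gene (CHAF1B, FEN1, MCM7, POLA2, POLD3, PRIM1 and RFC3). CHAF1B, at a mean of 55.5 CPM by library totals, overlaps MORC3 at 51.0. On the opposite strand 15 overlap one, with use of strand in counting not stated. Among these, RFC4 (50.3 CPM) overlaps EIF4A2 (197) and CCNE2 (19.6) overlaps INTS8 (23.6). TYMS, MCM2, GINS4, RPA1 and LIG1 are also among them, with less abundant partners. These members are uncertain to that extent.

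**Figure D5:**
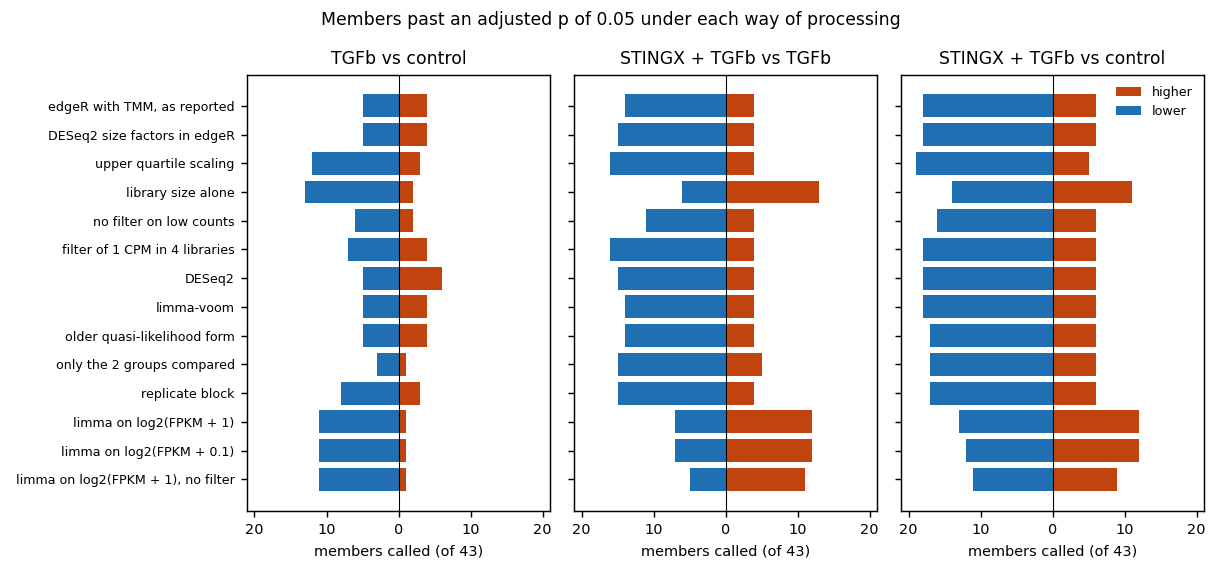
Number of the 43 genes called higher (right of 0) and lower (left of 0) in each comparison under 14 ways of processing, of which the uppermost is the one reported. For STINGX with TGFb against TGFb, lower calls outnumber higher ones with every scaling by TMM, DESeq2 size factors or upper quartile, and library totals and FPKM give 13 and 12 higher against 6 and 7 lower.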

How the data were processed

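Polyadenylated RNA of 12 LX2 libraries was sequenced with a strand-specific kit, per the labels' protocols. The submitters' processing notes name cutadapt, HISAT2, StringTie and edgeR and the build GRCh38. Tool versions and roles, and the use of strand in counting, are not stated there. The authors deposited FPKM values and estimated counts for genes, and estimated counts for transcripts. All counts were whole, and those of a gene's transcripts summed to the gene's.

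A filter on low counts (filterByExpr, minimum 10 and minimum total 15) left 21328 genes. The test was that of edgeR 4.0.16, run under R 4.3.3 (TMM, robust quasi-likelihood fit of all 12 libraries, 9 residual degrees of freedom) at an adjusted p under 0.05. The script was tested on simulated data. SE is the log2 change over the square root of F. FPKM served for levels between genes and, as log2(FPKM + 1), for an alternative in limma 3.58.1. Every pair of replicates differed beyond counting noise (a chi-square of 38.4 to 80.8 per degree of freedom).

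The 43 genes, 8 lists of 136 related genes and the alternatives were chosen with earlier results of these data known. Full statistics were given for up to 4 largest rises and 4 largest falls among members in each comparison (mean of at least 1 CPM), and always for MCM2, PCNA, CDC6, RRM2, TYMS, CCNE1, CCNE2 and E2F1. From each related list up to 2 rises and 2 falls were named, and DUT and DTYMK after their values were seen. Alternatives were 13 other settings of scaling, filter, tool and unit, and leaving out each library in turn. One gene that the rule for named genes selected is not reported here.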

Additional observations from a re-analysis of the deposited data

Results flagged for a closer look

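In each group of 4 libraries, the highest or lowest value was compared with its nearest neighbour, and a gap whose share of the range was above Dixon's 95% critical value was noted. Chance gives about 1 such group in 20, and 8 of 132 groups had one. MCM3 stood at 457.5 CPM in TGFb replicate 4, above 400.6 to 409.0 in the other 3. MCM4 stood at 253.4 CPM in STINGX with TGFb replicate 4, below 301.6 to 309.2. RFC2 stood at 77.59 CPM in STINGX with TGFb replicate 1, above 56.96 to 59.75. POLA2 stood at 74.2 CPM in TGFb replicate 2, above 70.6 to 70.84. POLD3 stood at 49.4 CPM in STINGX with TGFb replicate 3, below 68.38 to 71.39. RPA3 stood at 17.83 CPM in TGFb replicate 4, below 21.49 to 22.11. RRM2 stood at 168.0 CPM in control replicate 3, above 115.4 to 120.2. CHAF1A stood at 121.1 CPM in STINGX with TGFb replicate 4, below 127.0 to 127.7. No library held more than 2 of these 8 values.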

How the results depend on the processing

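Of the 43 genes, 4 of 9 calls for TGFb against control, 8 of 18 for STINGX with TGFb against TGFb and 16 of 24 for STINGX with TGFb against control held in all 25 other settings. The largest dependence was on scaling. With library size alone, members called for TGFb against control were 2 higher and 13 lower. For STINGX with TGFb they were 13 and 6 against TGFb, and 11 and 14 against control. The 136 related genes gave 15 higher and 19 lower for TGFb, and 29 and 23 for STINGX with TGFb against TGFb. All genes gave 4997 higher and 1890 lower in the latter. With limma on log2(FPKM + 1), log2(FPKM + 0.1) and log2(FPKM + 1) without a filter, members with TGFb were 1 higher and 11 lower in each. With STINGX against TGFb they were 12, 12 and 11 higher and 7, 7 and 5 lower. Against control they were 12, 12 and 9 higher and 13, 12 and 11 lower. In the same order the related genes gave 15, 15 and 13 higher and 18, 18 and 14 lower with TGFb. With STINGX against TGFb they gave 29, 29 and 21 higher and 24, 24 and 22 lower. Against control they gave 31, 31 and 26 higher and 26, 26 and 25 lower. For STINGX with TGFb against TGFb, all genes gave 4918, 4865 and 4201 higher and 1907, 1905 and 1696 lower. CHAF1B, at -0.01 for STINGX with TGFb against TGFb, was higher by 0.14 with library size alone and by 0.12, 0.13 and 0.12 on the 3 FPKM scales. For TGFb against control, upper quartile scaling gave 3 higher and 12 lower members. No filter on low counts gave 2 and 6, and a fit of only the compared groups 1 and 3. Leaving out 1 library gave 1 to 4 higher and 3 to 9 lower. The cause of these shifts was not tested.

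Whether replicate numbers pair the samples is not settled by the values. Correlations of deviations between same-numbered libraries ran from -0.038 to 0.045, and between others from -0.041 to 0.042. Of 12 libraries, 5 correlated best with their own number. These correlations gave no clear sign of pairing and could not exclude it. With the replicate block, members were 3 higher and 8 lower for TGFb, 4 and 15 for STINGX with TGFb against TGFb, and 6 and 17 against control. The block added calls on UHRF1 (adjusted p = 0.0113), RPA2 (0.0173) and PCNA (0.0274), all lower with TGFb, and on CDC45 (0.0449), lower with STINGX against TGFb (edgeR). Depth was high enough that 1 count was at most 0.0192 CPM, so spread between libraries, not counting, limited these comparisons.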
